A study of Mus musculus with 10 samples.

Results

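The genes described here encode subunits of the mitochondrial respiratory chain, 12 of them on mitochondrial DNA and 61 in the nucleus. They were followed in tumour-specific mouse T cells. Members were taken from the table of read counts by name and by level. A protein coding gene was included where its symbol began with mt- or was that of a nuclear subunit of complex I (Ndufa, Ndufb, Ndufc, Ndufs and Ndufv), complex II (Sdha, Sdhb, Sdhc and Sdhd), complex III (Uqcr) or complex IV (Cox). Its mean over the 10 libraries also had to reach 1 CPM, the count scaled to library size. Of 35275 genes, 80 had such a name and 73 reached that level. The nuclear genes comprise 35 subunits of complex I, 4 of complex II, 8 of complex III and 14 of complex IV, counting Ndufa4 with complex IV. The mitochondrial genes comprise 7 subunits of complex I, 1 of complex III, 3 of complex IV and 1 of the ATP synthase. All 73 had enough counts to be tested. The level decided 7 names: Cox8b at 0.948 CPM, mt-Atp8 at 0.174 CPM and 5 others lay under it. Cox7a1 at 1.17, Cox6a2 at 1.56 and Ndufb2 at 1.82 CPM lay just above it. Cox6a2 and Cox7a1 reached it only through replicate 2 of peptide 24 h, with 13.5 and 5.14 CPM there. Tests of these genes in comparisons of peptide 24 h are therefore not independent of how they were chosen.

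The cells were the 2/20 CTL line, cytotoxic T lymphocytes of WT genotype that recognise the AH1 peptide. Polyadenylated RNA was sequenced from 5 groups of 2 libraries. CTLs were co-cultured for 24 h or for 4 h with 4T1 cells, a mouse mammary carcinoma line, or were activated for 24 h or 4 h with AH1 peptide at 1 µg/mL, or were left resting without treatment. All groups, the resting one included, came from a line kept on irradiated BALB/c spleen cells that was given IL-2 (10 units/mL) and AH1 peptide (1 µg/mL) every week. All were collected with magnetic beads against CD45 before RNA was extracted. Whether the 2 libraries of a group are separate cultures was not given, so p-values measure the spread between these libraries, which may be technical.

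The respiratory chain carries electrons from NADH and succinate to oxygen and stores the energy as a proton gradient that drives ATP synthase. Most of its subunits are made from nuclear genes and imported. A small set of core subunits is transcribed inside the mitochondrion, from long precursors of both strands that are cut at tRNAs. Complexes I, III and IV need both sources at once. Activated T cells are known to enlarge their mitochondria and to make much mitochondrial protein soon after activation.

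Library totals lay between 14104658 and 22910633 counts. The factors that scale the libraries were 0.711 and 0.758 in the peptide 4 h libraries and 1.03 to 1.11 in the others, so CPM values at peptide 4 h stand well above plain shares of counts. Epithelial marker genes, which mark 4T1 cells, summed to 3605 to 4298 CPM in co-culture and to 0.692 to 7.21 CPM elsewhere. The 17 T cell identity genes summed to 1312 to 3279 CPM in co-culture, 4440 to 15315 CPM with peptide and 9117 to 9470 CPM at rest. Co-culture libraries therefore hold RNA of both partners, and in bulk RNA fewer T cells and less RNA per T cell cannot be told apart. B cell markers summed to 105 to 221 CPM with peptide and 1.7 to 4.37 CPM elsewhere. The 12 skeletal muscle markers summed to 908 CPM in replicate 2 of peptide 24 h and 2.92 to 18.9 CPM elsewhere. As a second view, called the T cell scale, libraries were scaled so that the T cell genes had the same median in each. This put the log2 median of all genes, relative to rest, at 2.66 in co-culture at 24 h, 1.45 in co-culture at 4 h, 0.90 at peptide 24 h and -0.91 at peptide 4 h, where it was otherwise between -0.04 and 0.05. Scaling by library totals put it at -0.54 at peptide 4 h. The ratio of mitochondrial to nuclear counts inside a library does not depend on any of these scalings.

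Poly(A) libraries see mitochondrial mRNAs because most of these are polyadenylated. Tails were not measured here, for mt-Nd6 or any other gene, and levels may also depend on them. Several of the mRNAs lack a complete stop codon until the tail is added. The 3′ ends of 3 such coding sequences (last 30 bases, mm10, 5′ to 3′) are shown for that reason. The incomplete stop codon, which the tail completes to TAA, is in capitals.
mt-Co3: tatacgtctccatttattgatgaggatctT
mt-Cytb: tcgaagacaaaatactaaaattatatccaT
mt-Nd4: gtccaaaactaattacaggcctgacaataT
The second sequence feature that touches the counts is a block of mitochondrial DNA copied into nuclear chromosome 1. The first 60 bases of mt-Co2 and of its copy Gm28661 are shown because no base differs between them, so none is in capitals. Over the whole aligned length 681 of 681 bases were identical.
mt-Co2: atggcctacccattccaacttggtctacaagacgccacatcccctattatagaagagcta
Gm28661: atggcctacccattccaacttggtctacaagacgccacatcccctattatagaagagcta

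The balance between the 2 genomes differed between the groups without overlap of their libraries, except between the co-culture times. Mitochondrial members took 3.09% and 4.55% of all counts in co-culture at 24 h, 3.13% and 2.81% in co-culture at 4 h, 2.09% and 2.74% with peptide at 24 h, 4.44% and 3.76% with peptide at 4 h, and 5.12% and 5.19% at rest. Both resting libraries lay above every activated one, and the peptide 24 h libraries were the lowest. The exact binomial 95% interval was 2.082% to 2.096% in replicate 1 of peptide 24 h and 5.18% to 5.203% in replicate 2 at rest. Such intervals cover counting error only. The nuclear members moved otherwise. They took 0.622% and 0.718% in co-culture at 24 h, 0.566% and 0.483% in co-culture at 4 h, 0.74% and 0.814% with peptide at 24 h, 0.384% and 0.364% with peptide at 4 h, and 0.549% and 0.582% at rest.

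The number of mitochondrial counts per nuclear count was 4.97 and 6.34 in co-culture at 24 h, 5.53 and 5.81 in co-culture at 4 h, 2.82 and 3.37 with peptide at 24 h, 11.6 and 10.4 with peptide at 4 h, and 9.32 and 8.91 at rest. The groups did not overlap, except the co-culture times, and the peptide groups stood at both ends of the scale. On the log2 scale the ratio was 1.62 ± 0.18 with peptide at 24 h against 3.45 ± 0.11 with peptide at 4 h, a difference of -1.83 (SD, n = 2 each), or 3.55-fold lower at the later time. At rest it was 3.19 ± 0.05. Against rest, the ratio was 1.62-fold lower in co-culture at 24 h (2.49 ± 0.25), 1.61-fold lower in co-culture at 4 h (2.50 ± 0.05) and 2.96-fold lower with peptide at 24 h. It was 1.2-fold higher with peptide at 4 h. Co-culture stood 1.82-fold above peptide at 24 h and 1.93-fold below it at 4 h, while the co-culture times differed by -0.01. With 2 libraries on each side an exact two-sided permutation test cannot go below 0.333, so the differences are set against the spread alone. Leaving out any library left the difference between -1.69 and -1.44 for peptide 24 h and between 0.18 and 0.35 for peptide 4 h against rest.

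**Figure D1:**
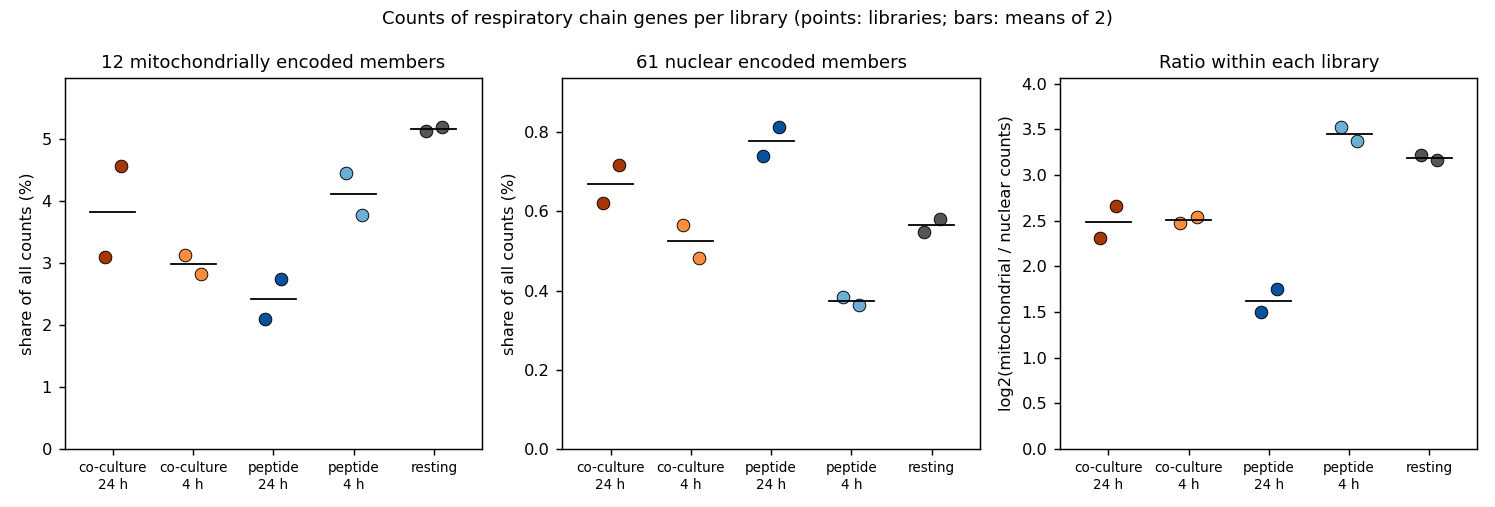
Share of all counts (%) of the 12 mitochondrial members (left) and the 61 nuclear members (middle), and the log2 ratio of the summed counts (right), in each library of the 5 groups; points are libraries and bars the means of 2. The mitochondrial share was lowest with peptide at 24 h (2.09% and 2.74%), where the nuclear share was highest (0.74% and 0.814%).

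After 24 h of peptide every mitochondrial mRNA was lower than at rest while most nuclear subunits were higher. The mRNA of mt-Co1, the catalytic core of complex IV (mitochondrial chromosome, + strand, bases 5328 to 6872), stood at 7062 and 9371 CPM with peptide at 24 h, against 20859 and 20737 CPM at rest. That of mt-Cytb, cytochrome b of complex III, stood at 3083 and 4063 CPM against 7320 and 7413 CPM. For mt-Nd5, a proton-pumping subunit of complex I, the values were 1737 and 2218 CPM against 4947 and 5373 CPM. In each case both peptide libraries lay below both resting ones. The log2 fold changes were -1.34 ± 0.20 for mt-Co1 (SE, adjusted p = 1.0e-04), -1.04 ± 0.20 for mt-Cytb and -1.38 ± 0.18 for mt-Nd5. All 12 mitochondrial members fell, by 0.85 (mt-Nd1) to 1.73 (mt-Co3) on the log2 scale with a median of -1.36, and on the T cell scale 3 of the 12 were lower and mt-Nd1 turned to 0.05 (adjusted p = 0.893). Of all 14729 genes tested, 26.1% were lower and 29.2% higher. Leaving out any library kept the count at 12.

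Of the 61 nuclear members, 37 were higher and 3 lower after 24 h of peptide, with a median of 0.59 against 0.02 for all genes, and the count higher was 52 on the T cell scale. Complex I had 21 higher and 1 lower of 35, complex II 3 higher of 4, complex III 5 higher and 1 lower of 8, and complex IV 8 higher and 1 lower of 14. Here and in the other comparisons, highest and lowest are meant among members that passed and whose libraries did not overlap between the groups. The 4 highest were accessory subunits of complex I. Ndufa5 stood at 72.7 and 89.5 CPM against 29.5 and 31.1 CPM at rest (log2 fold change 1.42 ± 0.18). Ndufc2 stood at 63.4 and 85.2 against 26.6 and 29.1 CPM (1.42 ± 0.21). Ndufs4 stood at 99.0 and 130.2 against 43.1 and 43.5 CPM (1.40 ± 0.19), and Ndufa10 changed by 1.31 ± 0.17. Ndufv1, which binds NADH, was at 105.7 and 106.1 against 44.1 and 45.9 CPM (1.24 ± 0.13, adjusted p = 4.4e-06). Uqcrc1, a core protein of complex III, was at 202.3 and 187.1 against 88.9 and 79.8 CPM (1.21 ± 0.17). In complex II, which has no mitochondrial gene, the iron-sulphur subunit Sdhb (0.92 ± 0.14) and the membrane anchors Sdhc (1.07 ± 0.15) and Sdhd (0.94 ± 0.18) rose. The flavoprotein Sdha was at 213.6 and 220.2 against 182.7 and 199.5 CPM, a difference that did not pass. Cox5a of complex IV rose by 1.11 ± 0.13. Without replicate 1 at rest the count higher was 24, and without replicate 2 of peptide 24 h, the library with muscle RNA, it was 30.

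The 3 nuclear members that fell were Cox7a2l, Ndufb2 and Uqcrh. Cox7a2l, also known as SCAF1, has been described as joining complexes III and IV into a supercomplex, which was not measured here. It had 138 and 146.1 CPM with peptide at 24 h, against 481.2 and 507.2 CPM at rest, a log2 fold change of -1.80 ± 0.14 (adjusted p = 3.3e-07). Ndufb2, an accessory subunit of complex I with 0.745 and 0.929 CPM against 1.90 and 3.02 CPM, fell by 1.54 ± 0.52 near the minimum level. Its call was lost when either peptide 24 h library, replicate 2 at rest or replicate 1 of co-culture 4 h was left out (adjusted p 0.0502 to 0.153). Uqcrh, the hinge protein of complex III, fell by 0.50 ± 0.18, and on the T cell scale it stood at 0.40 (adjusted p = 0.177). It lost its call without peptide 24 h replicate 1 (adjusted p = 0.18) or either resting library (0.0909 and 0.137).

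After 4 h of peptide the mitochondrial mRNAs were not lower in CPM, and the nuclear members split. As plain shares of all counts the mitochondrial members were lower, at 4.44% and 3.76% against 5.12% and 5.19% at rest. The mt-Co1 mRNA stood at 23883 and 19330 CPM with peptide at 4 h, against 20859 and 20737 CPM at rest, so the groups overlapped. Of the 12 mitochondrial members 1 was higher and none lower, where 28.8% of all genes were higher and 30.7% lower. That 1 was mt-Nd6, the complex I subunit encoded on the other strand from the rest, with 2015 and 1491 CPM against 1192 and 1307 CPM (0.49 ± 0.17, adjusted p = 0.0271), but it stood at -0.02 by library totals and -0.40 on the T cell scale, where 8 mitochondrial members were lower. Its call was lost without replicate 1 of peptide 4 h (adjusted p = 0.313) or either resting library (0.172 and 0.0663).

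Among the nuclear members 16 were higher and 16 lower at 4 h of peptide, shares close to those of all genes, and the split turned on scaling. Library totals gave 1 higher and 34 lower, and T cell genes 0 higher and 40 lower. The highest was Ndufa5, with 66.2 and 52.7 CPM against 29.5 and 31.1 CPM (log2 fold change 0.97 ± 0.18). It was followed by Ndufa4 (0.93 ± 0.23), the quinone-binding Uqcrb (0.91 ± 0.23) and Ndufs1, the large iron-sulphur subunit of the NADH-oxidising arm (0.86 ± 0.16). The lowest was Ndufv3, with 20.9 and 15.1 CPM against 71.2 and 94.6 CPM (-2.21 ± 0.21, adjusted p = 1.4e-06). Cox7a2l (-1.75 ± 0.14), Ndufb11 (-1.60 ± 0.20) and Ndufa6 (-1.59 ± 0.19) came next. Ndufv3, Ndufb11 and Ndufa6 are accessory subunits of complex I. Of all 35 nuclear complex I members 11 fell and 6 rose, and of the 8 complex III members 3 fell and 5 rose. Ndufs1 turned to -0.03 and Uqcrc1 (0.82 ± 0.17) to -0.04 on the T cell scale, whereas the 4 lowest kept their direction on each scale tried. Single libraries mattered. The count higher was 8 without replicate 1 of peptide 4 h or of rest and 10 without replicate 2 at rest. The count lower was 9 without replicate 2 of peptide 4 h and 10 without either resting library. Ndufa4 and Uqcrb lost their calls without replicate 1 of peptide 4 h (adjusted p = 0.0734 and 0.0699).

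Between 4 h and 24 h of peptide mitochondrial members were lower and most nuclear members higher at the later time. All 12 mitochondrial members were lower at 24 h, with a median log2 fold change of -1.54 and a range of -1.82 to -1.12, a direction lost on the T cell scale. Of the 61 nuclear members 39 were higher and 2 lower, with a median of 0.55. Of all genes 28.2% were higher and 24.6% lower. The mt-Nd5 mRNA was at 1737 and 2218 CPM at 24 h, against 7294 and 5720 CPM at 4 h (-1.72 ± 0.18), and mt-Co1 changed by -1.39 ± 0.20. In complex I 28 of 35 nuclear members were higher, led by Ndufb10, Ndufv3 (1.74 ± 0.21) and Ndufv1. Ndufb10 had 66.8 and 54.2 CPM at 24 h, against 18.0 and 15.6 CPM at 4 h (1.85 ± 0.19). Ndufv1 had 105.7 and 106.1 CPM at 24 h, against 33.4 and 34.8 CPM at 4 h (1.63 ± 0.13). All 4 complex II members were higher. On the T cell scale, which puts the median of all genes at 1.77, 0 mitochondrial members were lower and 2 higher, mt-Nd1 stood at 0.66 and mt-Co1 at 0.39, and 60 nuclear members were higher. The 2 lower, Ndufb2 and the Rieske protein gene Uqcrfs1 (-0.39 ± 0.15), turned to 0.42 and 1.37 on that scale, and Uqcrfs1 to 0.18 by library totals. Leaving out single libraries gave 0 to 2 lower. The count higher was 25 without replicate 2 of peptide 4 h.

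In co-culture most mitochondrial mRNAs were also lower than at rest at 4 h and some at 24 h, a direction that turned on the T cell scale. At 4 h mt-Co1 stood at 11163 and 10028 CPM, against 20859 and 20737 CPM at rest (-0.97 ± 0.20). The mt-Nd5 mRNA stood at 2402 and 2200 CPM against 4947 and 5373 CPM (-1.17 ± 0.18), and mt-Nd1 at 3697 and 3403 CPM against 7552 and 7880 CPM (-1.12 ± 0.18). Of the 12 mitochondrial members 9 were lower (median -0.88) and 0 higher, and on the T cell scale 4 were higher and 0 lower. Of all genes 26.7% were lower and 34.2% higher. At 24 h the replicates stood further apart, with mt-Co1 at 11240 and 17853 CPM. There 6 of 12 were lower (median -0.44), but on the T cell scale all 12 were higher. Of all genes 29.3% were lower and 36% higher. The mt-Nd5 mRNA was lower at 24 h by 0.92 ± 0.18 on the log2 scale and mt-Nd1 by 0.82 ± 0.18, turning to 1.71 and 1.82 on the T cell scale. The mt-Cytb mRNA was at 5774 and 8935 CPM, on both sides of its resting 7320 and 7413 CPM. Epithelial markers were far higher in every co-culture library than at rest, and their part in these differences was not tested. In co-culture at 24 h these markers summed to 3605 CPM in replicate 1 and 3732 CPM in replicate 2. Such a sum does not measure the mitochondrial RNA of 4T1 cells.

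The nuclear members in co-culture were led by Ndufa4, a subunit that sits in complex IV although it carries a complex I name (chromosome 6, - strand, 11900373 to 11907446). After co-culture it had 192.7 and 267.9 CPM at 24 h and 148.2 and 111.7 CPM at 4 h, against 41.6 and 38.0 CPM at rest. Its log2 fold changes were 2.53 ± 0.23 at 24 h (adjusted p = 7.3e-07) and 1.71 ± 0.23 at 4 h. Ndufb9, an accessory subunit of complex I, had 250.2 and 327.8 CPM at 24 h and 219.7 and 171.6 CPM at 4 h, against 92.8 and 110 CPM at rest (1.51 ± 0.18 and 0.95 ± 0.18). With peptide it stood at 80.0 to 115.8 CPM, near rest. Co-culture libraries also held 4T1 RNA, with epithelial markers at 3605 to 4298 CPM. Which cells the Ndufa4 and Ndufb9 mRNA came from was not tested. Uqcrc1 rose by 1.23 ± 0.17 at 24 h and 1.21 ± 0.17 at 4 h. At 24 h 27 nuclear members were higher and 11 lower, and at 4 h 8 were higher and 17 lower, and on the T cell scale these became 59 higher and 0 lower, and 51 higher and 1 lower. Of all genes 36% were higher and 29.3% lower at 24 h, and 34.2% higher and 26.7% lower at 4 h, so the 17 lower at 4 h were a share close to that of all genes. The lowest at both times, beside the low-count Cox7a1, were Cox7a2l, Ndufa6 (-1.11 ± 0.19 and -1.45 ± 0.19) and Ndufv3 (-1.19 ± 0.20 and -1.35 ± 0.20), but on the T cell scale Cox7a2l turned to 1.00, Ndufa6 to 1.53 and Ndufv3 to 1.43 at 24 h, and Ndufv3 to 0.05 at 4 h. Cox7a2l had 140.2 and 179.1 CPM at 24 h (-1.63 ± 0.14) and 123.3 and 120.8 CPM at 4 h (-2.02 ± 0.14), against 481.2 and 507.2 CPM at rest. Without replicate 1 at rest 10 members were higher at 24 h, and without replicate 2 of co-culture 17. Without replicate 1 of co-culture 6 were lower at 24 h, and without replicate 2 at rest 7. At 4 h 8 were lower without replicate 2 of co-culture and 10 without replicate 2 at rest.

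Set against peptide at the same time, co-culture had less mitochondrial mRNA at 4 h, though more on the T cell scale, and more at 24 h. At 4 h 11 of 12 mitochondrial members were lower (median -1.03), but this direction turned on the T cell scale, where 12 were higher, and library totals left 5 lower. Of all genes 26.3% were lower and 35.1% higher. The mt-Nd5 mRNA was at 2402 and 2200 CPM against 7294 and 5720 CPM (-1.50 ± 0.18). At 24 h 10 of 12 were higher (median 0.84), where 28.6% of all genes were higher and 24% lower. The mt-Cytb mRNA was at 5774 and 8935 CPM against 3083 and 4063 CPM (1.04 ± 0.20), while mt-Nd1 overlapped at 3543 and 5209 CPM against 3850 and 4721 CPM. On the T cell scale 12 were higher. The change of the mitochondrial members between 4 h and 24 h was higher in co-culture than with peptide for 12 of 12, by a median of 1.91 and a range of 1.42 to 2.34 in the interaction of source and time. In that interaction, a test added after the data were seen, 15.8% of all genes were higher and 20.2% lower. It was 1.85 ± 0.29 for mt-Co1 (adjusted p = 2.7e-04) and 1.96 ± 0.25 for mt-Nd5, and 10 of 12 remained past the threshold on the T cell scale.

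Of the nuclear members 0 were higher and 16 lower by edgeR in that interaction, and 45 did not pass (median -0.25, against -0.10 for all genes). The medians of complexes III and IV were 0.20 and 0.23. The 20.2% of all genes that were lower stand beside these 16 of 61. At an unadjusted p under 0.05 there were 5 higher, and by DESeq2 2. On the T cell scale 25 were lower, and by library totals 38. The count was 7 without replicate 1 of co-culture 4 h, 9 without replicate 2 of peptide 24 h or of peptide 4 h. In the direct comparison with peptide at 24 h, 25 nuclear members were lower and 4 higher in co-culture. Of all genes 24% were lower and 28.6% higher there. Ndufa10 was at 73.2 and 56.0 CPM against 165.6 and 142.0 CPM (-1.25 ± 0.17). Cox5b was at 143.4 and 162.4 against 333.5 and 333.5 CPM (-1.13 ± 0.14), and Ndufb6 at 23.6 and 23.4 against 48.0 and 50.8 CPM (-1.07 ± 0.18). These 3 turned to 0.49, 0.62 and 0.67 on the T cell scale, where 59 nuclear members were higher. The 4 higher were Ndufb9 (1.44 ± 0.18), Ndufa4 (1.35 ± 0.22), Cox6c (0.64 ± 0.19) and Cox8a (0.55 ± 0.17). Cox6c and Cox8a lost their calls without replicate 2 of co-culture 24 h (adjusted p = 0.0909 and 0.105) or replicate 1 of peptide 24 h (0.0772 and 0.0691). The count lower was 14 without replicate 1 of co-culture 24 h.

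At 4 h 11 nuclear members were higher and 13 lower in co-culture than with peptide, against 60 higher on the T cell scale and 36 higher and 2 lower by library totals. Of all genes 35.1% were higher and 26.3% lower, larger shares than those of the 61 nuclear members. The highest were Ndufb9 (1.16 ± 0.18), Ndufv1 (67.5 and 68.3 CPM against 33.4 and 34.8 CPM, 0.99 ± 0.13), Ndufb10 (0.86 ± 0.19) and Ndufv3 (0.85 ± 0.21). The lowest were Ndufa1 (-1.10 ± 0.20), Cox6b1 (-1.01 ± 0.17), Ndufa5 (-0.98 ± 0.18) and Cox5b (-0.88 ± 0.14), which turned to 1.20, 1.28, 1.31 and 1.41 on the T cell scale. Ndufv3 lost its call without replicate 2 of peptide 4 h (adjusted p = 0.0567), where 4 were higher. There were 5 higher without replicate 1 of co-culture 4 h, and 7 lower without replicate 2 of co-culture 4 h or replicate 1 of peptide 4 h. Between the co-culture times 0 mitochondrial members passed edgeR's adjusted test (median 0.40), against 5 higher at an unadjusted p under 0.05 and 2 by DESeq2. There 16 nuclear members were higher and 0 lower at 24 h, where 8.5% of all genes were higher and 8.02% lower. The highest were Ndufa4 (0.83 ± 0.22), Sdhd (0.78 ± 0.18), Ndufs8 (0.78 ± 0.19) and Uqcr10 (0.76 ± 0.20). These calls rested on single libraries, with 0 higher without replicate 2 of co-culture 24 h or of co-culture 4 h, 8 without replicate 1 of co-culture 4 h, and 6 and 9 without replicates 1 and 2 at rest. There were 27 nuclear and 9 mitochondrial members higher without replicate 1 of co-culture 24 h.

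**Figure D2:**
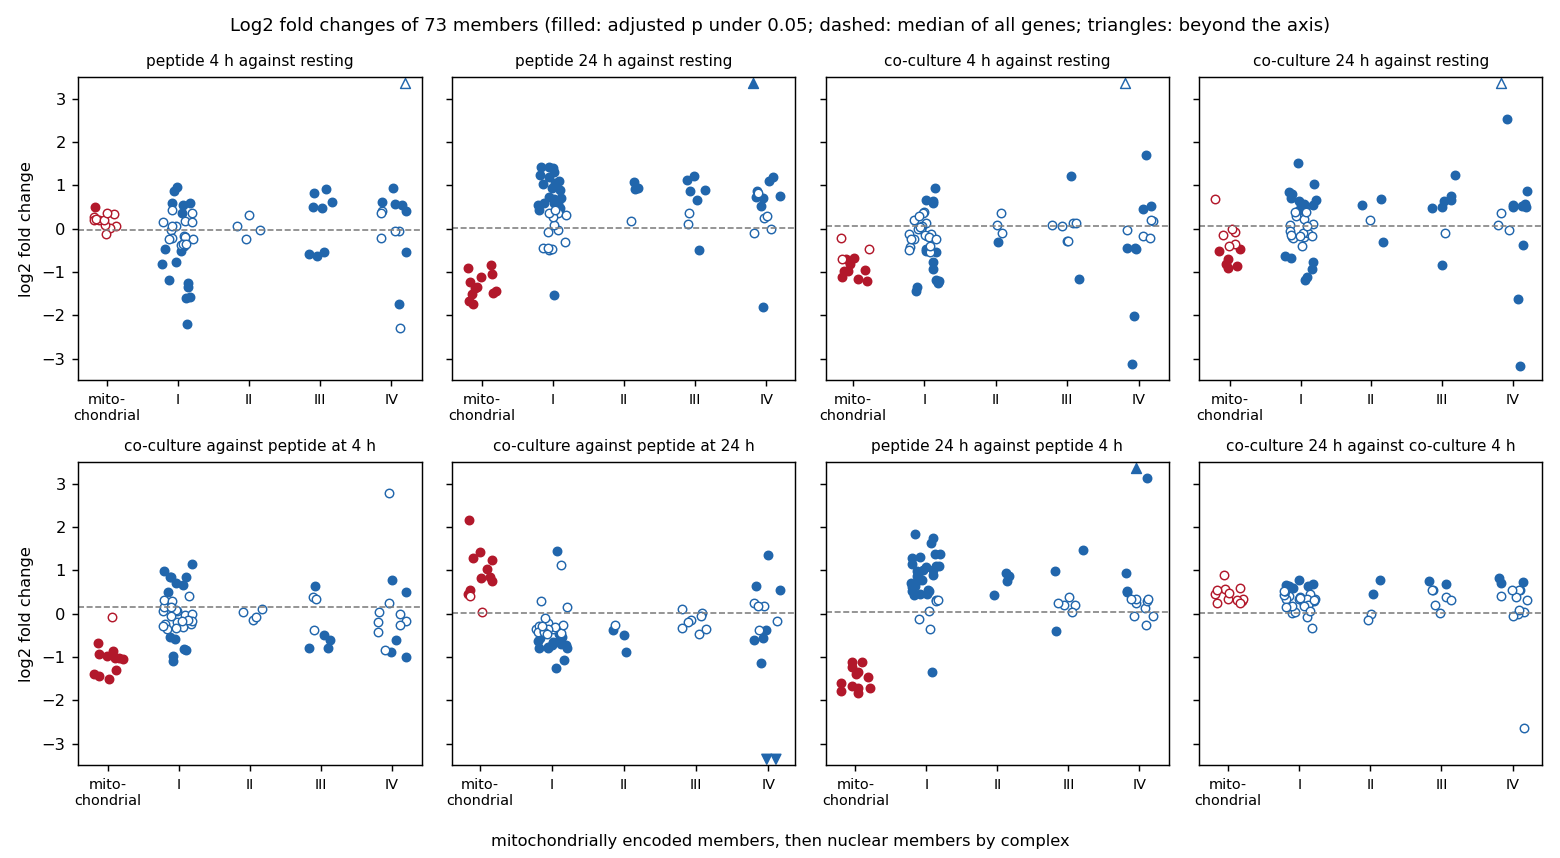
Log2 fold changes of the 73 members in 8 comparisons, with mitochondrial members first and nuclear members by complex; filled points passed an adjusted p of 0.05, the dashed line is the median of all genes and triangles lie beyond the axis. The mitochondrial members lie below the line and most nuclear members above it in both comparisons of peptide at 24 h, with rest (medians -1.36 and 0.59) and with 4 h (-1.54 and 0.55). On the T cell scale, which moves all genes of a comparison alike, 3 and 0 of the 12 mitochondrial members were lower by their own test.

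The mitochondrial mRNAs did not keep their proportions. These were read inside each library as counts relative to mt-Co1 and so do not depend on scaling. In co-culture they mix RNA of 4T1 cells and T cells, whose parts were not separated. For mt-Cytb the ratio was 51.4% and 50% in co-culture at 24 h, 49.4% and 50.3% in co-culture at 4 h, 43.7% and 43.4% with peptide at 24 h, 39.4% and 38.2% with peptide at 4 h, and 35.1% and 35.7% at rest. The co-culture libraries were the highest, the resting ones the lowest, and the peptide groups lay between without overlap. For mt-Nd1 the ratio was 31.5% and 29.2% in co-culture at 24 h, 33.1% and 33.9% in co-culture at 4 h, 54.5% and 50.4% with peptide at 24 h, 43.5% and 42.6% with peptide at 4 h, and 36.2% and 38% at rest. It was above rest with peptide and below rest in co-culture. For mt-Nd5 it was 20.4% and 17.6% in co-culture at 24 h and 30.5% and 29.6% with peptide at 4 h, against 23.7% and 25.9% at rest. The ratio of mt-Nd6, whose gene overlaps the end of mt-Nd5 on the opposite strand, was 8.44% and 7.71% with peptide at 4 h, against 5.71% and 6.3% at rest. How strand was treated in counting was not given, so reads of the 2 genes may be mixed there. Such ratios set counts of genes of different length and sequence side by side, and only their change between groups is read. As counts per kilobase of gene length, the means over the 10 libraries were 9808 CPM for mt-Co1, 6109 for mt-Nd1, 5591 for mt-Cytb, 2047 for mt-Nd5 and 1920 for mt-Nd6, whereas the highest nuclear member, Cox8a, had 458.5.

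**Figure D3:**
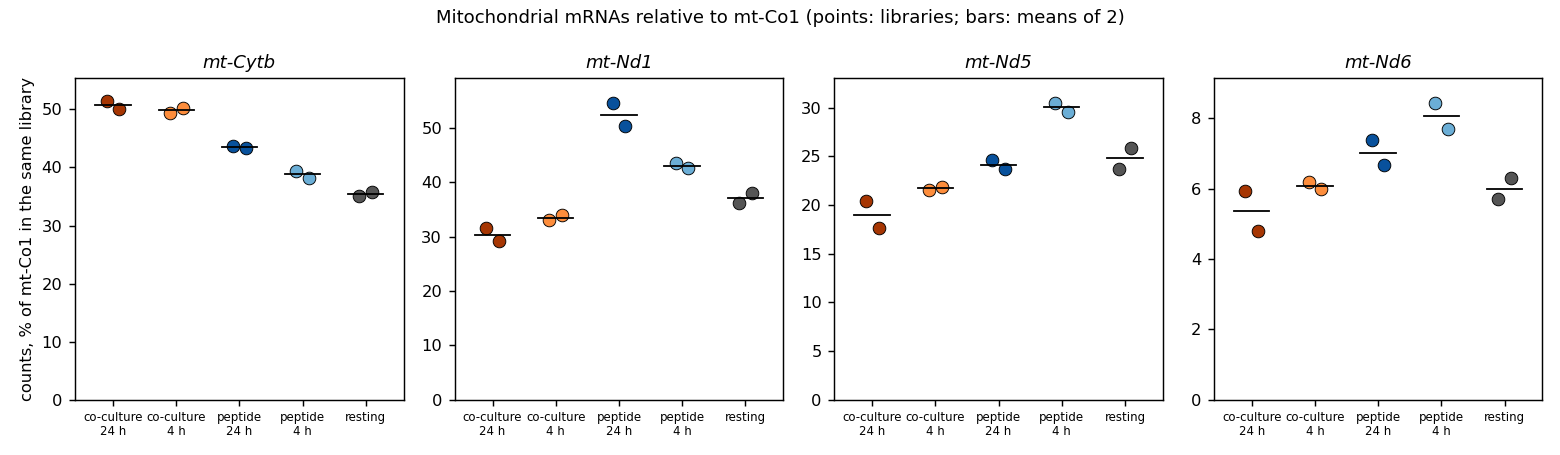
Counts of 4 mitochondrial mRNAs as a percentage of mt-Co1 in the same library; points are libraries and bars the means of 2. mt-Cytb was highest in co-culture (49.4% to 51.4%), where libraries also hold 4T1 RNA, and mt-Nd1 with peptide at 24 h (54.5% and 50.4%).

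A group of 5 of the 12 mitochondrial members stood far below the other 7, and nearly all of their sequence is also present in the nucleus. For mt-Co2, mt-Co3, mt-Atp6, mt-Nd3 and mt-Nd4l, 97.6% to 99.9% of all 100-base windows occur in a pseudogene of the block on chromosome 1 (24611535 to 24616197, mm10), which holds the identical mt-Co2 stretch printed above. Their means ran from 33.5 to 128.8 CPM per kilobase, against 1747 to 9808 CPM per kilobase for the other 7. The gene mt-Atp8, which lay under the minimum and is no member, was lower still at 0.855 CPM per kilobase. It had 0% of its windows in annotated transcripts of other genes. Bases of the block between the annotated copies were not searched, so a nuclear copy of mt-Atp8 may have been missed. Among the 7 high members, windows were shared at 0% for mt-Nd1, mt-Nd5, mt-Nd6 and mt-Cytb, 3.19% for mt-Nd2, 30.8% for mt-Co1 and 60.8% for mt-Nd4. For mt-Co1, mt-Nd4 and mt-Nd2 the copy sharing most windows had 0.00326, 0.0152 and 0.0002 counts per count of the gene over all libraries. The copies of mt-Co2, mt-Co3 and mt-Atp6 carried counts of the same size as the genes. Gm28661 had 0.895 to 1.08 counts per count of mt-Co2 over the 10 libraries, Gm28437 0.884 to 1.02 per count of mt-Co3, and Gm10925 1.54 to 2.1 per count of mt-Atp6. The sources used here do not say how reads shared by 2 places were counted, so the levels of these 5 genes are uncertain. Their log2 fold changes at peptide 24 h (-1.45 to -1.73) all lay below those of the members with no shared window. The latter were -0.85 to -1.38 for mt-Nd1, mt-Nd5, mt-Nd6 and mt-Cytb.

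The pair of mt-Nd3 and its copy Gm28438 behaved differently from the rest. The copy had 1.24 and 1.14 counts per count of mt-Nd3 in co-culture at 24 h, 1.12 and 1.5 in co-culture at 4 h, 5.38 and 7.83 with peptide at 24 h, 3.43 and 3.47 with peptide at 4 h, and 2.32 and 2.28 at rest. The groups did not overlap, apart from the co-culture times, while the ratio for mt-Co2 kept to the range given above. The mt-Nd3 mRNA itself was low. It had 14.7 and 24.8 CPM after 24 h of co-culture and 4.69 and 4.10 CPM after 24 h of peptide, against 11.8 and 12.8 CPM at rest.

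**Figure D4:**
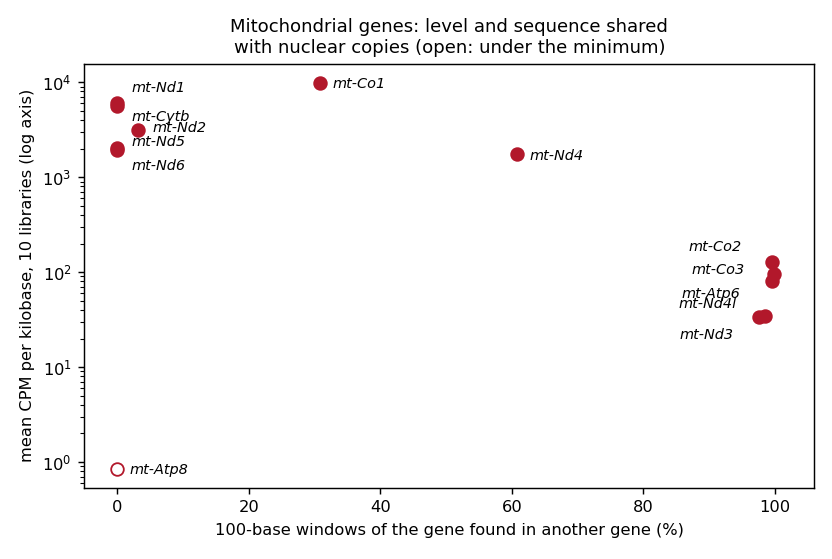
Mean level of each mitochondrial gene (CPM per kilobase over 10 libraries, log axis) against the percentage of its 100-base windows that occur in another gene; the open point, mt-Atp8, lay under the minimum level. The 5 genes at 97.6% to 99.9% lie at 33.5 to 128.8 CPM per kilobase.

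Few nuclear members moved one way in every activated group, and a smaller share of them than of all genes did. Against rest, 4 of 61 were higher in all 4 comparisons (Cox5a, Ndufa12, Uqcrc1 and Ndufa4), where 11.2% of all genes were. On the same reading 2 were lower in all 4, where 11.1% were: Cox7a2l, which turned to 1.00 in co-culture at 24 h on the T cell scale, and Uqcrh, which there turned to 0.40 at peptide 24 h, 0.25 in co-culture at 4 h and 1.79 in co-culture at 24 h. At peptide 4 h the 4 higher members lost their calls by library totals (adjusted p 0.129 to 0.652) and on the T cell scale (0.205 to 0.925), where Cox5a turned to -0.26, Ndufa12 to -0.28 and Uqcrc1 to -0.04. Single libraries also ended calls. Ndufa12 lost its call in co-culture at 4 h without replicate 1 of that group (0.0922) or of rest (0.0943), and at peptide 4 h without replicate 1 of that group (0.0626) or of rest (0.125). Cox5a lost its call in co-culture at 4 h without replicate 2 of that group (0.0661) or either resting library (0.056 and 0.0681). Uqcrh lost its call at peptide 4 h without replicate 2 of that group (0.15) or either resting library (0.0681 and 0.0955). The 4 comparisons share the resting libraries. Cox7a2l (chromosome 17, - strand, 83501919 to 83514333) also held 155.5 and 138.6 CPM after 4 h of peptide. The 8 activated libraries thus lay between 120.8 and 179.1 CPM against 481.2 and 507.2 CPM at rest, and 9.9% of its windows occur in a pseudogene, Gm6969. Ndufa4 had its lowest values at rest and its highest in co-culture. Peptide lay between, with 74.8 and 106.2 CPM at 24 h (1.19 ± 0.23) and 88.8 and 62.5 CPM at 4 h. Of the 61 nuclear members, 40 shared no window with another gene, Ndufa4, Uqcrc1 and Uqcrh among them. Another 10 shared over 15% of their windows, Ndufb9 (17%), Uqcrb and Ndufb6 among them, so their levels depend on how shared reads were counted.

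**Figure D5:**
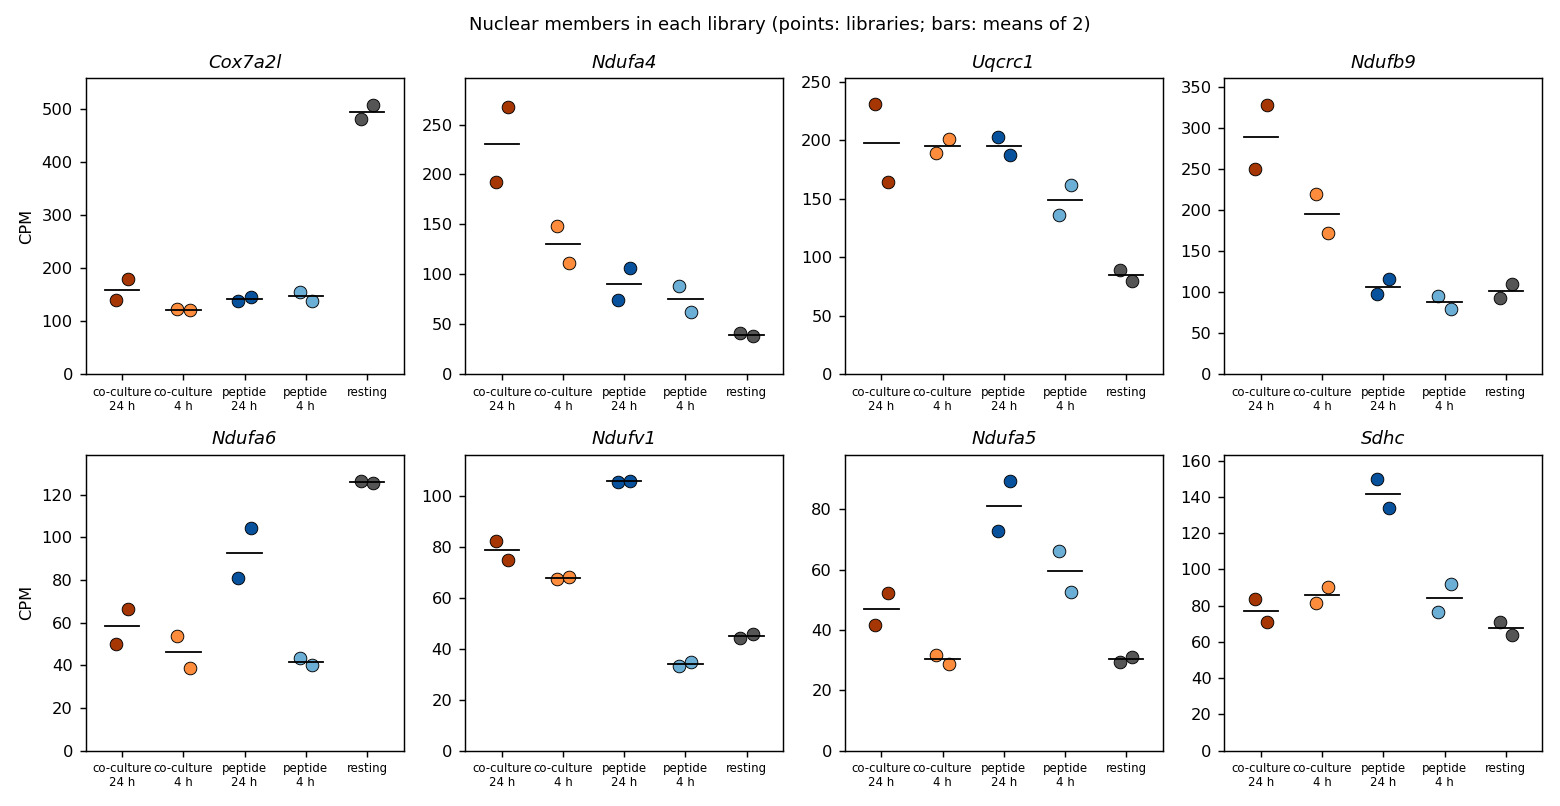
CPM of 8 nuclear members in each library of the 5 groups; points are libraries and bars the means of 2. Cox7a2l lay at 120.8 to 179.1 CPM in the activated libraries and at 481.2 and 507.2 CPM at rest, and Ndufa4 rose to 192.7 and 267.9 CPM in co-culture at 24 h against 41.6 and 38.0 CPM at rest.

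Complex IV subunits that muscle and heart use in place of the common forms were close to absent apart from 1 library. Cox6a2 had 247 counts, Cox8b 163 and Cox7a1 94 in replicate 2 of peptide 24 h, where the muscle genes Acta1 and Ckm had 6218 and 722 counts. In the other libraries Cox6a2 had 0 to 17 counts, Cox8b 0 to 6 and Cox7a1 2 to 49. The log2 fold change of Cox7a1 between peptide at 24 h and 4 h (3.13 ± 0.95) lost its call without that library (adjusted p = 0.186) or without replicate 2 of peptide 4 h (0.0991). The one between co-culture and peptide at 24 h (-4.01 ± 0.99) lost its call without replicate 2 of peptide 24 h (adjusted p = 0.0593). Those between co-culture and rest (-3.18 ± 1.01 at 24 h and -3.13 ± 1.00 at 4 h) lost theirs without replicate 1 at rest (adjusted p = 0.15 and 0.173) and on the T cell scale (0.621 and 0.147). They also lost them without replicate 1 of co-culture 24 h (0.0892) and without replicate 2 of co-culture 4 h (0.15), each for its own time. The other variant subunits on the list, Cox4i2, Cox6b2 and Ndufa4l2, averaged 0.0441, 0.109 and 0.065 CPM, while the common forms Cox4i1, Cox6c and Cox7a2 averaged 178.6, 206.7 and 92.8 CPM.

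The genes that build and feed the chain were read from gene lists by function, in the comparison of peptide at 24 h with rest, where 29.2% of all genes were higher and 26.1% lower. Mitochondrial ribosomal proteins, which translate mitochondrial mRNAs, had 66 of 76 higher and 0 lower (median 1.04), led by Mrpl45, Mrps7 (2.17 ± 0.16) and Mrpl15 (1.84 ± 0.14). Mrpl45 had 49.5 and 47.7 CPM against 10.2 and 8.31 CPM (2.39 ± 0.18). Of the ribosomal proteins 1 was lower at an unadjusted p under 0.05 and 0 by DESeq2. For the other lists given with 0 lower by edgeR at this time, both counts were 0 too. Of the translation factors 6 of 9 were higher and 0 lower, with the elongation factor Gfm1 at 2.22 ± 0.14. Genes for processing and stability of mitochondrial RNA had 14 of 16 higher and 2 lower (median 1.11). Rexo2, a mitochondrial oligoribonuclease, rose by 1.64 ± 0.14, and Tbrg4 by 1.57 ± 0.17. Lrpprc, which keeps mitochondrial mRNAs stable, had 162.2 and 146.3 CPM against 58.3 and 54.3 CPM (1.45 ± 0.13). The 2 lower were Pde12, which removes poly(A) from mitochondrial mRNAs (-0.61 ± 0.14), and Trmt10c, a subunit of mitochondrial RNase P (-0.64 ± 0.20), but on the T cell scale they turned to 0.27 and 0.26. Trmt10c lost its call without replicate 1 of peptide 24 h or replicate 2 at rest (adjusted p = 0.13 and 0.103). The mitochondrial mRNAs were thus lower in the libraries where most listed genes for their translation and processing were higher.

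Nuclear subunits of the ATP synthase had 15 of 18 higher and 0 lower with peptide at 24 h (median 0.68), led by Atp5g1, Atp5b (1.81 ± 0.12) and Atp5d (1.77 ± 0.12). Without replicate 1 at rest 8 of the 18 were higher. Atp5g1 had 201.8 and 212.9 CPM against 38.6 and 40.1 CPM (2.40 ± 0.14). Complex I assembly factors had 13 of 14 higher and 0 lower (median 0.86), electron carriers and feeders 6 of 7 and 0 (median 1.29), and tricarboxylic acid cycle enzymes 12 of 14 and 0 (median 1.21). Cytochrome c, Cycs, which carries electrons from complex III to IV and was chosen after its values were seen, rose by 1.13 ± 0.17. Assembly factors of complexes II to IV had 12 higher and 6 lower of 24, and the share lower is close to that of all genes. There were 2 lower without replicate 2 of peptide 24 h and 3 without either resting library. Bcs1l, which inserts the Rieske protein into complex III, rose by 2.08 ± 0.22. Surf1 of complex IV had 32.0 and 29.3 CPM against 64.2 and 71.6 CPM (-1.15 ± 0.16). Genes of mitochondrial DNA transcription and replication had 7 higher and 1 lower of 12, and nuclear regulators of respiratory genes 2 higher and 2 lower of 9. The 1 lower in the first was lost without replicate 1 of peptide 24 h or of rest, and the second had 1 lower when any 1 library of peptide 24 h, rest or co-culture 4 h was left out. Tfam, the factor that packages mitochondrial DNA and starts its transcription, and the mitochondrial RNA polymerase Polrmt were also chosen after their values were seen. Tfam had 60.1 and 55.1 CPM after 24 h of peptide and 122.6 and 102.8 CPM after 4 h, against 56.1 and 68.2 CPM at rest. Its log2 difference from rest was -0.11 ± 0.15 at 24 h (adjusted p = 0.567), or 0.77 on the T cell scale, and it rose by 0.86 ± 0.15 at 4 h (adjusted p = 2.8e-04). Polrmt rose by 0.83 ± 0.21 at 24 h. On the T cell scale the counts higher at 24 h were 75 of 76 ribosomal proteins and 18 of 18 ATP synthase subunits, and no list had a member that was lower.

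The same lists at 4 h of peptide, where 28.8% of all genes were higher and 30.7% lower, depended on scaling. Mitochondrial ribosomal proteins had 45 higher and 4 lower of 76, 2 of them lower without replicate 2 of peptide 4 h or of rest, against 31 and 16 by library totals and 15 and 30 on the T cell scale, where the direction turned, with Mrps16 lowest (-2.04 ± 0.20). RNA processing genes had 12 higher and 1 lower of 16, and 8 and 3 on the T cell scale, with Tbrg4 at 2.31 ± 0.17 and Lrpprc at 1.49 ± 0.14. Surf1 was lower by 1.81 ± 0.17 on the log2 scale. In co-culture against peptide at 24 h, 39 mitochondrial ribosomal proteins were lower and 1 higher, and on the T cell scale 73 were higher and 0 lower. Of all genes 24% were lower and 28.6% higher there. The count lower was 25 without replicate 1 of co-culture 24 h and 24 without replicate 2 of peptide 24 h.

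Promoters of nuclear members were searched for motifs of factors known to act on respiratory genes, in RefSeq windows (GRCm38.p6) from 250 bases before to 50 after the start, on both strands. Of the 61 genes 50 matched, with 52 windows. The NRF1-type motif GCGCANGCG was in 26.9% of these windows and in 6.25% of all 32851 windows. Its form GCGCATGCG, which the first includes, was in 9.62% and 1.75%. The ETS-type motif CCGGAAG was in 21.2% and 8.86%, and the YY1-type motif AAGATGGCG in 9.62% and 1.4%. The 250 bases before the start are shown for 2 members that hold GCGCATGCG on both strands there, with the motif in capitals, 5′ to 3′ on the strand of the gene. Cox6a1 lies on chromosome 5 (chr5:115348959-115349208, - strand), with the motif 162 bases before the start, and Ndufa11 on chromosome 17 (chr17:56717512-56717761, + strand), with the motif 60 bases before it.
Cox6a1: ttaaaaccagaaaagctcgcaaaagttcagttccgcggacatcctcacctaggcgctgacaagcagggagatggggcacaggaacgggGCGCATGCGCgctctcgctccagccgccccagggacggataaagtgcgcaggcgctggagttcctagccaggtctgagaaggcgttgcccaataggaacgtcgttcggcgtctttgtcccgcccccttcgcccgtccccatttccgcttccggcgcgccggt
Ndufa11: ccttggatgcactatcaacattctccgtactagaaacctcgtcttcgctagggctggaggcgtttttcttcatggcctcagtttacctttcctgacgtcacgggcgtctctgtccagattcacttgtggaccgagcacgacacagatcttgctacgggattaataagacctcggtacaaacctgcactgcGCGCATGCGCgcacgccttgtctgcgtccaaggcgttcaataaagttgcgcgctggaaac
Both rose with peptide at 24 h against rest, Cox6a1 with 292.6 and 265.5 CPM against 138.8 and 164.5 CPM and Ndufa11 with 104.7 and 121.1 CPM against 69.8 and 80.4 CPM. At 4 h of peptide Ndufa11 fell, with 55.5 and 49.7 CPM (adjusted p = 0.0186). A matching string describes these windows and shows neither binding nor a cause.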

How the data were processed

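Stranded poly(A) libraries were made from RNA of the CTLs, per the labels' protocols, and the authors deposited whole-number read counts per gene without scaling. The submitters' processing notes name mm10 and DESeq2 1.36. Not given in the sources used here are the aligner and counter, whether counting used strand, and how shared reads were treated. The counts were tested by edgeR's quasi-likelihood test (edgeR 4.0.16, R 4.3.3) after TMM scaling, over 14729 genes that filterByExpr left. The model had 1 mean per group, took in all 10 libraries (2 per group) and had 5 residual degrees of freedom. Its biological coefficient of variation was 0.159. P-values are two-sided and adjusted by Benjamini-Hochberg over all genes tested, with a threshold of 0.05. CPM are edgeR's counts relative to the TMM-scaled library size. Genes named in the text are the mitochondrial members, the 4 highest and 4 lowest nuclear members past the threshold whose groups did not overlap in each comparison, a panel of core and variant subunits, and up to 3 genes per direction of each list by p-value. The members, lists and tests were chosen with earlier results of these data known. The skeletal muscle list and the interaction of source and time were added after seeing the data. Shared sequence was counted as 100-base windows of GENCODE M21 transcripts (mm10). Libraries of a group were not duplicates: their mean chi-square per gene was 6.94 to 47.7. Alternatives were other scalings, DESeq2 1.42.0, no filter, only the groups compared, a replicate block and leaving out each library.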

Additional observations from a re-analysis of the deposited data

Results flagged for a closer look

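The time course of the mitochondrial members, and of some nuclear ones, differed between the sources of activation by the test of the interaction of source and time. That test was added after the data were seen. The change between 4 h and 24 h was higher in co-culture than with peptide for 12 mitochondrial members and lower for 0 of the 12, while it was higher for 0 nuclear members and lower for 16 of the 61. Of all genes 15.8% were higher and 20.2% lower. The nuclear count lower fell to 7 without replicate 1 of co-culture 4 h, and the count higher was 5 at an unadjusted p under 0.05 and 2 by DESeq2. For mt-Co1 the means were 14546 CPM in co-culture at 24 h, 10596 CPM in co-culture at 4 h, 8217 CPM with peptide at 24 h and 21607 CPM with peptide at 4 h. Epithelial markers were at 3605 to 4298 CPM in the co-culture libraries and at most 6.67 CPM in the peptide libraries, and their part in the difference was not tested.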

How the results depend on the processing

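The ratio of mitochondrial to nuclear counts does not depend on scaling, and its differences kept their sign under each alternative except that between the co-culture times, which lay near 0. As the median over members it was 0.54 for peptide 4 h and -1.77 for peptide 24 h against rest, -1.26 for co-culture against peptide at 4 h and -2.30 for peptide 24 h against 4 h. With the mitochondrial genes that share few windows alone, a choice made after seeing the data, it was -1.42 for peptide 24 h and -0.63 for co-culture 4 h against rest. Libraries set equal on T cell genes gave the largest moves, as stated beside the results, and cause and scaling cannot be told apart where T cell RNA is diluted or T cell genes themselves change.

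On that T cell scale, peptide 4 h against rest had 0 mitochondrial members higher and 8 lower, and 0 nuclear members higher and 40 lower. Peptide 24 h against rest had 3 mitochondrial and 1 nuclear members lower. Co-culture 4 h against rest had 4 mitochondrial members higher and 0 lower, and 51 nuclear higher and 1 lower. Co-culture 24 h against rest had 12 mitochondrial members higher and 0 lower, and 59 nuclear higher and 0 lower. Co-culture against peptide at 4 h had 12 higher and 0 lower, and 60 nuclear higher and 0 lower, and at 24 h 59 nuclear higher and 2 lower. Peptide 24 h against 4 h had 2 mitochondrial higher and 0 lower, and 60 nuclear higher and 0 lower. Co-culture 24 h against 4 h had 12 mitochondrial and 58 nuclear members higher, and the interaction 25 nuclear lower. By library totals, peptide 4 h against rest had 0 mitochondrial higher and 1 lower, and 1 nuclear higher and 34 lower. Co-culture 24 h against rest then had 1 mitochondrial member higher, co-culture against peptide at 4 h had 5 mitochondrial lower and 36 nuclear higher and 2 lower, peptide 24 h against 4 h 0 nuclear lower, and the interaction 38 nuclear lower.

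Named genes that changed sign on the T cell scale, with their log2 fold change there, were Ndufs1 (-0.03), Cox5a (-0.26), Ndufa12 (-0.28), mt-Nd6 (-0.40) and Uqcrc1 (-0.04) at peptide 4 h, and Uqcrh (0.40), mt-Nd1 (0.05), Pde12 (0.27), Trmt10c (0.26) and Tfam (0.77) at peptide 24 h. Tfam there ran from -0.25 to 0.04 when 1 library was left out. Against rest they were Ndufv3 (0.05), mt-Co1 (0.43), mt-Nd5 (0.24), mt-Nd1 (0.28) and Uqcrh (0.25) in co-culture at 4 h, and Uqcrh (1.79), Cox7a2l (1.00), Ndufv3 (1.43), Ndufa6 (1.53), mt-Nd5 (1.71) and mt-Nd1 (1.82) in co-culture at 24 h. In co-culture against peptide they were Ndufa1 (1.20), Cox6b1 (1.28), Ndufa5 (1.31), Cox5b (1.41), mt-Nd5 (0.79) and mt-Co1 (1.26) at 4 h, and Ndufa10 (0.49), Cox5b (0.62) and Ndufb6 (0.67) at 24 h. Between the peptide times they were Ndufb2 (0.42), Uqcrfs1 (1.37), mt-Nd5 (0.06), mt-Co1 (0.39) and mt-Nd1 (0.66). By library totals mt-Nd6 at peptide 4 h (-0.02) and Uqcrfs1 between the peptide times (0.18) changed sign.

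Without the filter on low counts, 2 mitochondrial members were higher at peptide 4 h, 7 nuclear lower at peptide 24 h, 1 mitochondrial higher in co-culture at 24 h against rest, 1 nuclear lower between the peptide times, 7 mitochondrial higher and 1 nuclear lower between the co-culture times, and 3 nuclear higher in the interaction. With the libraries of the 2 groups compared alone, 2 mitochondrial members were higher at peptide 4 h, 7 nuclear lower at peptide 24 h, 1 mitochondrial higher in co-culture at 24 h against rest, 2 nuclear higher in co-culture against peptide at 24 h, 1 nuclear lower between the peptide times, and 1 mitochondrial higher and 1 nuclear lower between the co-culture times. DESeq2's Wald test gave 2 mitochondrial members higher between the co-culture times and 2 nuclear higher in the interaction, and DESeq2's size factors gave 1 nuclear higher in the interaction. Other counts of the members under these settings stayed within 1.5 times, while of the counts of the other gene lists 3 without the filter, 8 with the 2 groups alone and 2 by DESeq2's Wald test did not.

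Replicate numbers share no stated source, and same-numbered libraries did not deviate together (correlations of -0.374 to 0.195). With the number as a block, 0 nuclear members were lower between the peptide times and 9 higher between the co-culture times.

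Leaving out 1 library at a time gave these ranges. At peptide 4 h against rest, 0 to 1 mitochondrial members were higher, and 8 to 18 nuclear higher and 9 to 17 lower. At peptide 24 h, 24 to 38 nuclear were higher and 1 to 5 lower. In co-culture at 4 h, 8 to 20 nuclear were lower, and at 24 h 0 to 1 mitochondrial higher, and 10 to 27 nuclear higher and 6 to 11 lower. In co-culture against peptide, 4 to 12 nuclear were higher and 7 to 14 lower at 4 h, and 2 to 4 higher and 14 to 31 lower at 24 h. Between the peptide times 25 to 41 nuclear were higher and 0 to 2 lower, and between the co-culture times 0 to 9 mitochondrial higher, and 0 to 27 nuclear higher and 0 to 1 lower. In the interaction 0 to 5 nuclear were higher and 7 to 16 lower. A lone library left in a group is assumed to vary like the other groups. Few counts limit Ndufb2, Cox7a1, Cox6a2 and mt-Nd3.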
